A study of Homo sapiens with 24 samples.

Results

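TMEM87B and SDC4 are the 2 genes described here, out of 36639 genes tested on the arrays at 24 h and 37704 at 48 h. These totals count each target with no RefSeq gene name as a gene of its own. Genes named through RefSeq were 19497 of them at 24 h and 19395 at 48 h. TMEM87B and SDC4 were chosen by their change after si-A2 at 24 h. Their probes were found through the RefSeq accession that the array files give for each spot. This gave 3 of the 50599 probes at 24 h and the same 3 of the 58201 probes at 48 h. TMEM87B was carried by probes A_23_P91076 and A_23_P303155, and SDC4 by probe A_23_P109034. None of the 3 was left out by the filter on low values. The change that chose the genes is given below as a description with no test, and tests were made on the arrays at 48 h, which the choice did not use.

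The cells were LNCaP, an androgen-dependent prostate cancer line. They were transfected with si-A1 against the long non-coding RNA TAPIR-1, with si-A2 against TAPIR-2, or with the scrambled siRNA si-SCRL, and RNA was taken 24 h or 48 h later. There were 4 biological replicates of each siRNA at each time, with 1 array each. Each TAPIR transcript was targeted by 1 siRNA sequence on these arrays, so an effect of the transcript and of that siRNA sequence cannot be told apart. The si-A2 array of replicate 2 at 48 h was dim, with a median intensity of 13.9 against 20.4 to 32.2 on the other arrays at 48 h, and it was left out, which left 11 arrays at 48 h and 12 at 24 h. Each time had an array version of its own, so that time and array version cannot be told apart.

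TMEM87B is a multi-pass membrane protein of the Golgi apparatus, a relative of TMEM87A, and the family has been linked to transport from endosomes back to the Golgi. SDC4 encodes syndecan-4, a transmembrane proteoglycan that carries heparan sulfate chains. Through these chains syndecans bind fibronectin and growth factors, and syndecan-4 works together with integrins at focal adhesions, where its cytoplasmic tail activates protein kinase C alpha.

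TMEM87B lies at chr2:112055269-112119314 and SDC4 at chr20:45325288-45348424 in the RefSeq annotation of GRCh38.p14. The 250 bases before the annotated start of each gene, at chr2:112055019-112055268 on the + strand and chr20:45348425-45348674 on the - strand, are shown as a description. Capitals mark matches to the GC box (GGGCGG, either strand), the TATA element (TATAA, printed strand) and the NF-kB consensus (either strand).
TMEM87B: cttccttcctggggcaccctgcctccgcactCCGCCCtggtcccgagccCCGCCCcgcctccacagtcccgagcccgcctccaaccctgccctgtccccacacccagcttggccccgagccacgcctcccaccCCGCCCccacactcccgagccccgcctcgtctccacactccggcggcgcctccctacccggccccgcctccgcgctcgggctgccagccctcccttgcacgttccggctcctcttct
SDC4: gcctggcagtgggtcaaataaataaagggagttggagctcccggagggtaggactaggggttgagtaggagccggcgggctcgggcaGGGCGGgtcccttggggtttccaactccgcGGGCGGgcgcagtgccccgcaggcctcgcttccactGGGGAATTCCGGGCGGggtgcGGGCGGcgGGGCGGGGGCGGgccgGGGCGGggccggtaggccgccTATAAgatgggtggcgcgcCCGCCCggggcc
The SDC4 sequence held 8 GC boxes, 1 TATA element starting 31 bases before the annotated start, and 1 match to the NF-kB consensus starting 97 bases before it. The TMEM87B sequence held 3 GC boxes and neither of the other motifs. Among 35116 RefSeq promoters of the same length, 42.6% held a GC box, 13.6% a TATA element and 10.0% the NF-kB consensus. Neither gene had a CCAAT box (CCAAT, either strand), which 32.0% of promoters held, or the p53 half-site, which 5.6% held. No match overlapped a match to another motif. G and C made up 75.6% of the TMEM87B sequence and 73.6% of the SDC4 sequence, against a median of 58.0%. A match is a string of letters and was not tested for binding, nor for a link to the changes after the siRNAs.

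Levels are log2 of the processed intensity after quantile normalization between the arrays of a time point. The levels of the 3 probes were not compared with each other. All 3 probes were well above background on all arrays used, none was saturated and no spot was flagged as an outlier. The knockdown of TAPIR-2 was read from probe A_19_P00318461, which carries the TAPIR-2 transcript and was tested at both times. At 24 h the si-SCRL arrays gave 5.04 ± 0.20 (SD, n = 4), the si-A1 arrays 4.64 ± 0.32 and the si-A2 arrays 4.06 ± 0.74, where it was well above background on 2 of 4 arrays. At 48 h it was 4.64 ± 0.58, 4.82 ± 0.81 and 4.68 ± 0.90 (n = 3), with ranges that overlapped. The log2 difference of si-A2 from si-SCRL was -0.98 (adjusted p = 0.230, limma) at 24 h and 0.23 (adjusted p = 0.700, limma) at 48 h, so that neither passed the test. Another TAPIR-2 probe tested at 48 h, A_22_P00019831, was well above background on 0 arrays, and its si-A2 difference of -0.59 (adjusted p = 0.605, limma) was opposite in sign. The level of TAPIR-1 after si-A1 was not read from the arrays. By qPCR, the paper reported knockdown of both TAPIR transcripts in LNCaP, at a later time than these arrays cover.

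TMEM87B stood above the si-SCRL level after si-A2 at 24 h, by 2.51-fold on probe A_23_P91076 and 2.86-fold on probe A_23_P303155. On probe A_23_P91076 the levels of replicates 1 to 4 were 8.39, 8.47, 8.59 and 8.44 after si-SCRL. They were 9.26, 9.34, 9.29 and 9.13 after si-A1, and 9.61, 9.96, 9.73 and 9.91 after si-A2. Thus the siRNAs formed 3 separate bands with no overlap, with si-A1 between the control and si-A2. The share of all probes whose groups separate without overlap at 24 h is not given here. The genes were also chosen on the si-A2 and si-SCRL arrays. For all 3 probes the separation at 24 h is therefore description only. The group means were 8.47 ± 0.08, 9.26 ± 0.09 and 9.80 ± 0.16 (SD, n = 4 each). The fitted log2 difference from si-SCRL was 1.33 (SE 0.13) after si-A2 and 0.78 (SE 0.13) after si-A1, and si-A2 stood 0.55 above si-A1.

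Probe A_23_P303155 gave the same order. Its levels were 5.36, 5.74, 6.10 and 5.83 after si-SCRL. They were 6.94, 6.72, 7.01 and 6.50 after si-A1, and 6.81, 7.16, 7.38 and 7.74 after si-A2. Here both siRNA groups lay above all control arrays, while si-A1 and si-A2 overlapped with each other. The log2 difference from si-SCRL was 1.51 (SE 0.20) after si-A2 and 1.04 (SE 0.20) after si-A1. Across the 12 arrays the TMEM87B probes had a Pearson r of 0.95, a description over arrays that share the siRNA groups. The 12 arrays lay on 2 slides, and the difference of si-A2 from si-SCRL on probe A_23_P91076 was 1.36 on slide 1 and 1.30 on slide 2.

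SDC4 was lower after si-A2 than after si-SCRL at 24 h, by a factor of 2.05. Its levels in replicates 1 to 4 were 8.06, 8.54, 7.80 and 8.32 after si-SCRL. They were 7.87, 7.93, 7.91 and 7.98 after si-A1, and 7.30, 7.13, 6.93 and 7.22 after si-A2. All si-A2 arrays lay below all arrays of the other siRNAs, again as description only, whereas si-A1 fell within the range of the control. The means were 8.18 ± 0.32, 7.92 ± 0.05 and 7.14 ± 0.16 (SD, n = 4 each). The log2 difference from si-SCRL was -1.04 (SE 0.16) after si-A2 and -0.26 (SE 0.16) after si-A1, the latter between -0.39 without si-SCRL replicate 3 and -0.15 without si-SCRL replicate 2. Within slides the difference of si-A2 was -1.09 and -0.99. In RNA from whole cultures, fewer cells with the transcript and less transcript per cell cannot be told apart.

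Ranked by log2 difference of si-A2 from si-SCRL at 24 h among 44849 probes, A_23_P303155 was the 32nd highest, A_23_P91076 the 89th highest and the SDC4 probe the 817th lowest. In that comparison 0.0792% of the genes tested were called higher and 0.83% lower, a call needing an absolute log2 difference of at least 0.5 and an adjusted p below 0.01. For si-A1 the shares were 0.0846% higher and 0.98% lower. The choice used this comparison, and si-A1 shares its si-SCRL arrays, so nothing was read from the place of the members against these shares.

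**Figure D1:**
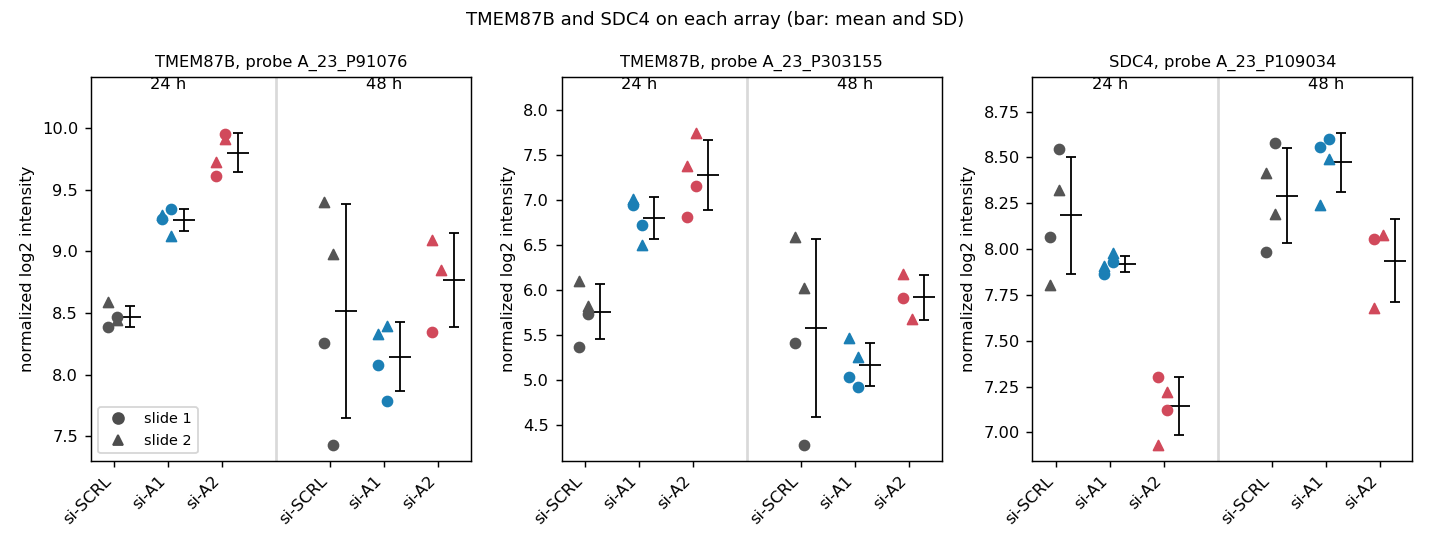
Normalized log2 intensity (vertical axis) of the TMEM87B and SDC4 probes on each of the 23 arrays used, by siRNA and time point; circles are slide 1, triangles slide 2, and the bar beside each group is its mean with SD (n = 4, and n = 3 for si-A2 at 48 h). At 24 h the si-A2 arrays of SDC4 sit between 6.93 and 7.30 and those of TMEM87B probe A_23_P91076 between 9.61 and 9.96. These si-A2 arrays lie clear of the controls in the comparison by which the genes were chosen. At 48 h the groups overlap the control.

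At 48 h neither gene passed the test against si-SCRL after either siRNA. SDC4 read 7.98, 8.58, 8.41 and 8.19 after si-SCRL. It read 8.56, 8.60, 8.24 and 8.49 after si-A1, and 8.06, 7.68 and 8.08 in replicates 1, 3 and 4 of si-A2. The si-A2 arrays were all below the mean of the control arrays but overlapped with the lowest of them. The log2 difference of si-A2 from si-SCRL was -0.34 (95% confidence interval -0.71 to 0.04, adjusted p = 0.339, limma). That of si-A1 was 0.18 (-0.17 to 0.53, adjusted p = 0.505, limma), and 0.04 without si-SCRL replicate 1. The si-A2 difference was -0.23 without si-A2 replicate 3.

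The control arrays of TMEM87B were widely spread at 48 h. On probe A_23_P91076 the si-SCRL levels were 8.26, 7.43, 9.40 and 8.98. They were 8.07, 7.78, 8.33 and 8.39 after si-A1, and 8.35, 9.09 and 8.85 after si-A2. Replicates 1 and 2, on slide 1, gave the low control levels and replicates 3 and 4, on slide 2, the high ones, so that the SD of the control was 0.87 against 0.08 at 24 h. The log2 difference from si-SCRL was 0.11 (-0.48 to 0.70, adjusted p = 0.879, limma) after si-A2 and -0.37 (-0.92 to 0.17, adjusted p = 0.363, limma) after si-A1. Within slide 1, where si-A2 had 1 array, the si-A2 difference was 0.51 and within slide 2 it was -0.22. Without si-SCRL replicate 2 the fitted si-A2 difference was -0.12, with the sign turned, and without si-SCRL replicate 3 it was 0.31. The si-A1 difference was -0.63 (adjusted p = 0.0386, limma) without si-SCRL replicate 2 and -0.19 without si-SCRL replicate 3.

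Probe A_23_P303155 showed the same split of the controls, with 5.41 and 4.28 on slide 1 and 6.59 and 6.02 on slide 2. Its levels were 5.03, 4.93, 5.46 and 5.25 after si-A1, and 5.91, 6.18 and 5.67 after si-A2. Its log2 difference from si-SCRL was 0.23 (adjusted p = 0.803, limma) after si-A2 and -0.41 (adjusted p = 0.492, limma) after si-A1. Without si-A2 replicate 1 or without si-SCRL replicate 2 the si-A2 difference was -0.11 and -0.09, and without si-SCRL replicate 3 it was 0.51. The si-A1 difference was -0.77 without si-SCRL replicate 2 and -0.15 without si-SCRL replicate 3. The TMEM87B probes again moved together, with r = 0.95 over the 11 arrays. On the dim array that was left out, the TMEM87B probes read apart, 9.58 on A_23_P91076 and 1.06 on A_23_P303155, which was not well above background there, and SDC4 read 7.58.

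The siRNAs were also set against each other at 48 h. SDC4 was lower after si-A2 than after si-A1 on every array, with a log2 difference of -0.52 (-0.90 to -0.14). Its unadjusted p was 0.0131 and its adjusted p 0.125 (limma), so it did not pass the test. These groups did not overlap. TMEM87B was higher after si-A2 by 0.48 on probe A_23_P91076 (-0.11 to 1.07, adjusted p = 0.378, limma), where the groups overlapped. On probe A_23_P303155 it was higher by 0.63 (-0.19 to 1.46, adjusted p = 0.408, limma), with no overlap, and by 0.30 without si-A2 replicate 1. The share of all probes whose groups separate without overlap is not given here, so the lack of overlap is description only. Among all genes tested in this comparison 0.931% were called higher and 0.446% lower. Within slides 1 and 2 the SDC4 difference was -0.52 and -0.49, and that of probe A_23_P91076 was 0.42 and 0.61. On slide 1 these values rest on 1 si-A2 array. At 24 h the same differences, which the choice of the genes bears on, were -0.77 for SDC4 and 0.55 for probe A_23_P91076.

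**Figure D2:**
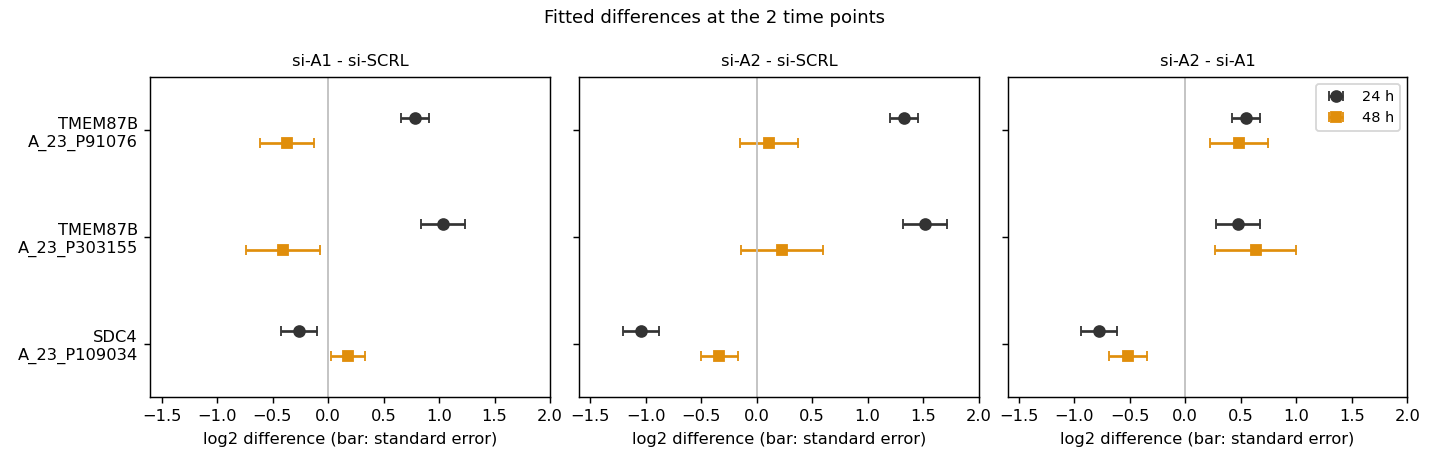
Fitted log2 differences (horizontal axis, bar: standard error) of the 3 probes for si-A1 against si-SCRL, si-A2 against si-SCRL and si-A2 against si-A1, at 24 h (black circles, n = 4 arrays a group) and 48 h (orange squares, n = 4, and n = 3 for si-A2). The si-A2 against si-SCRL differences of TMEM87B are 1.33 and 1.51 at 24 h and 0.11 and 0.23 at 48 h.

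Of the nearest relatives of the 2 genes, those tested were SDC1, SDC3 and TMEM87A. None of them passed the test in any comparison with si-SCRL. SDC1, the main syndecan of epithelial cells, had log2 differences of -0.40 after si-A1 (adjusted p = 0.170, limma) and -0.62 after si-A2 (adjusted p = 0.0334, limma) at 24 h. At 48 h they were -0.37 (adjusted p = 0.115) and -0.55 (adjusted p = 0.104). SDC3, a syndecan best known from neurons, was at -0.02 and -0.07 at 24 h and at 0.24 and 0.22 at 48 h. SDC2 had no probe above the background threshold at either time. TMEM87A was at -0.16 and 0.11 at 24 h, and at -0.37 (adjusted p = 0.0545) and -0.07 at 48 h.

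Counts over 4 lists of related genes were read against the shares of all genes called. The lists hold genes named through RefSeq, while the shares also count targets with no RefSeq gene name. The share among RefSeq genes alone is not given here. At 48 h the shares of all genes were 2.2% higher and 3.68% lower after si-A1, and 0.0637% higher and 0.374% lower after si-A2. With the replicate number as a block, the total called at 48 h was 1439 in place of 2215 after si-A1 and 0 in place of 165 after si-A2. In the si-A2 comparison under that block, 6565 genes had an unadjusted p below 0.05 in limma. For the main fit the share of all genes at that cutoff is not given here. The counts below at an unadjusted p are therefore not read as an effect on a list. The median log2 difference over all genes at 24 h was 0.05 after both siRNAs, and at 48 h the si-A1 median was 0.06 and the si-A2 median 0.01.

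Of the other cell surface heparan sulfate proteoglycans, the syndecans and glypicans, 8 were tested at 24 h and 6 at 48 h, and limma called 0 of them in any of the 4 comparisons. At an unadjusted p below 0.05 there was 1 after each siRNA at 24 h, and at 48 h there were 2 with si-A1 and 4 with si-A2. The list medians were between -0.12 and 0.10.

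Among the enzymes that build and trim heparan sulfate, 1 of 27 rose after si-A2 at 24 h. This was SULF2, the extracellular enzyme that removes sulfate groups from the chains, at 5.54 ± 0.45 after si-SCRL and 6.88 ± 0.06 after si-A2 (log2 difference 1.34, adjusted p = 0.00373, limma), a call kept under 15 of 22 other settings, with a difference of 0.74 under normexp. None of the 27 was called after si-A1 at 24 h, where 7 had an unadjusted p below 0.05 in limma. At 48 h, 3 of 26 rose after si-A1 and 2 fell. HS3ST1, which adds a sulfate group to the chain, rose by 1.36 (adjusted p = 0.00633), a call kept under 14 of 24 other settings. SULF2 rose by 1.19 (adjusted p = 0.00902), kept under 8 of 24, and HS6ST2, another sulfotransferase, by 1.01 (adjusted p = 0.00504), kept under 13 of 24. GLCE, the epimerase that turns glucuronic into iduronic acid, fell by 1.25 on the log2 scale (adjusted p = 0.00401), and was well above background on 1 of 4 arrays after si-A1, with the call kept under 14 of 24. FAM20B, a kinase of the linker sugar, fell by 1.08 on the log2 scale (adjusted p = 0.00981), a call kept under 3 of 24 other settings. These 5 differences depended on the background correction. With normexp they were 0.39 for HS3ST1, 0.31 for SULF2, 0.66 for HS6ST2, -0.23 for GLCE and -0.30 for FAM20B, where HS6ST2 alone kept its call. Under normexp HS3ST1 (adjusted p = 0.00199, limma) and SULF2 (adjusted p = 0.00525, limma) missed only the cutoff on the log2 difference. GLCE (adjusted p = 0.0211, limma) and FAM20B (adjusted p = 0.0193, limma) missed both cutoffs. With no background correction SULF2 was at 0.45 and GLCE at -0.33. With the replicate block, the adjusted p of HS3ST1 was 0.0176 and that of FAM20B 0.0288. After si-A2 at 48 h limma called 0 of 26, with 4 at an unadjusted p below 0.05, and SULF2 was at 0.87 (adjusted p = 0.112). The list medians at 24 h were 0.19 and 0.20, and at 48 h they were -0.04 and -0.19.

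Of 24 genes for binding partners of syndecan-4 and for focal adhesion, 1 was called in the 4 comparisons. FN1, which encodes fibronectin, rose after si-A1 at 48 h from 8.56 ± 0.40 to 9.52 ± 0.15 (log2 difference 0.96, adjusted p = 0.00887, limma), a call kept under 9 of 24 other settings. For the comparisons with 0 calls in limma, 5 genes after si-A1 and 6 after si-A2 at 24 h, and 9 after si-A2 at 48 h, had an unadjusted p below 0.05. The list medians were 0.05 and -0.04 at 24 h and -0.14 after both siRNAs at 48 h.

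The list of the TMEM87 family and of endosome to Golgi transport had 35 genes tested at each time, and its calls were all decreases. Over all genes tested, decreases were also called more often than increases. At 24 h the shares were 0.98% lower and 0.0846% higher after si-A1, and 0.83% and 0.0792% after si-A2. At 48 h they were 3.68% lower and 2.2% higher after si-A1, and 0.374% and 0.0637% after si-A2. VAMP3, a vesicle SNARE of recycling endosomes, fell after si-A2 from 10.1 ± 0.30 to 8.40 ± 0.12 at 24 h (log2 difference -1.70, adjusted p = 0.000493, limma), under all 22 other settings. At 48 h VAMP3 fell by 1.36 on the log2 scale (adjusted p = 0.00391, and 0.0168 with the replicate block), a call kept under 14 of 24. IGF2R, the receptor that carries lysosomal enzymes between the Golgi and endosomes, fell after si-A2 by 0.91 on the log2 scale at 24 h (adjusted p = 0.00876), a call kept under 5 of 22 other settings. At 48 h IGF2R stood at -1.15 (adjusted p = 0.0103), outside the threshold. After si-A1 RAB6A, the small GTPase of Golgi traffic, fell by 1.22 on the log2 scale at 24 h (adjusted p = 0.00712) and by 1.43 at 48 h (adjusted p = 0.0045). The call at 24 h was kept under 10 of 22 other settings and that at 48 h under 16 of 24, with -0.86 under normexp at 48 h. SNX5 and VPS35, parts of the endosomal sorting machinery, fell after si-A1 at 48 h by 1.07 (adjusted p = 0.00111) and 0.55 (adjusted p = 0.00943, and 0.0218 with the replicate block). The call of SNX5 was kept under 23 of 24 other settings and that of VPS35 under 7 of 23. In all, limma called 1 of the 35 lower after si-A1 and 2 lower after si-A2 at 24 h, and 3 and 1 at 48 h. The list medians were -0.11 and -0.13 at 24 h and -0.07 and -0.13 at 48 h.

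**Figure D3:**
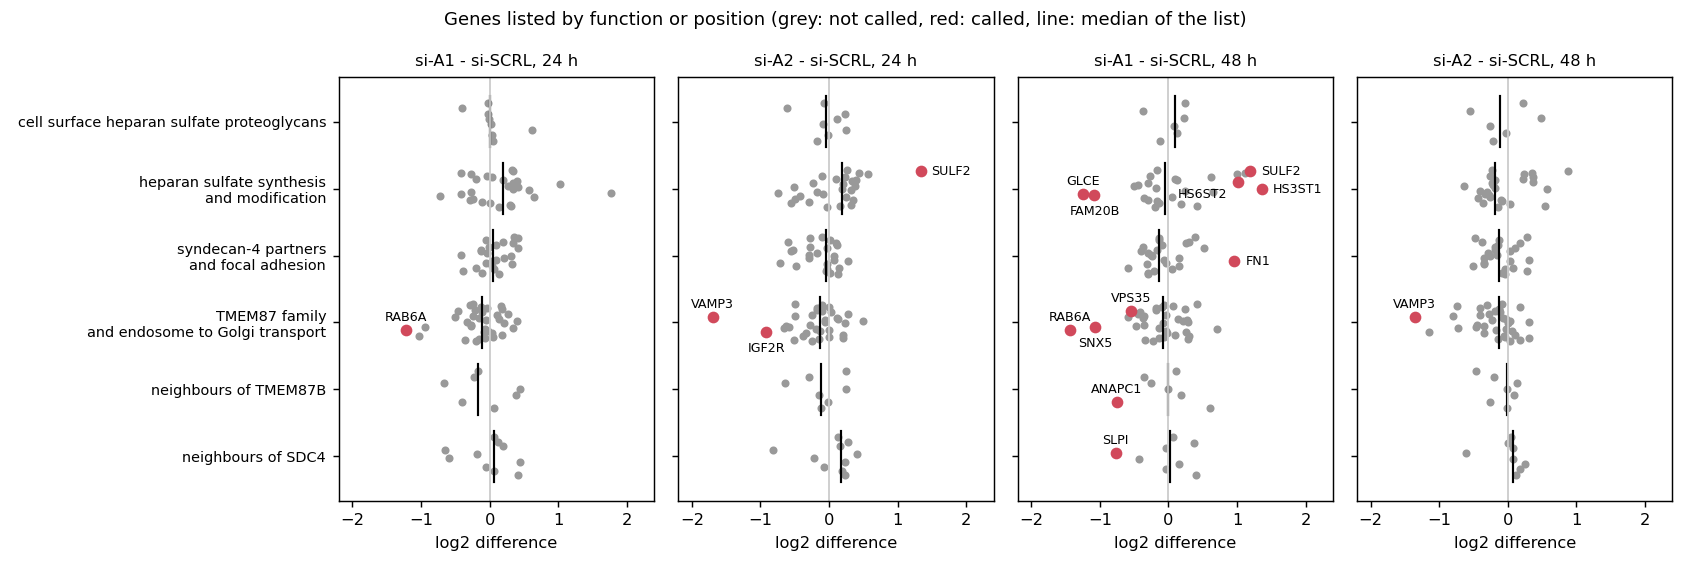
Log2 differences from si-SCRL (horizontal axis) of each tested gene of the 4 lists and of the 5 nearest protein-coding genes on each side of TMEM87B and SDC4, for both siRNAs at both times; grey points were not called, red points were called, and the line is the median of the list. VAMP3 is at -1.70 and SULF2 at 1.34 after si-A2 at 24 h.

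After si-A2, limma called 0 of 7 tested neighbours of TMEM87B and 0 of 10 (24 h) or 8 (48 h) neighbours of SDC4 among the 5 nearest protein-coding genes on each side. At an unadjusted p below 0.05 these were 1 and 1 at 24 h and 1 and 2 at 48 h. FBLN7, which starts 19071 bases after the end of TMEM87B and encodes a secreted fibulin, was at 0.25 at 24 h and -0.01 at 48 h. MERTK, a receptor tyrosine kinase on the other side, had no probe above the threshold. The genes next to SDC4 were SYS1, a Golgi trafficking protein, at 0.16 and 0.07, and RBPJL, a transcription factor of the pancreas, at 0.23 and 0.08. After si-A1 at 48 h ANAPC1, a subunit of the anaphase promoting complex, fell by 0.75 on the log2 scale (adjusted p = 0.00178), and SLPI, a secreted protease inhibitor near SDC4, fell by 0.77 (adjusted p = 0.00902). The call of ANAPC1 was kept under 23 of 24 other settings and that of SLPI under 11, with -0.50 under normexp. After si-A2 SLPI stood at -0.82 at 24 h (adjusted p = 0.0384) and -0.61 at 48 h (adjusted p = 0.0908).

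The genes most like TMEM87B were found by Pearson r over the 23 arrays, each gene centred within its time point, among 17505 genes. ACLY, the enzyme that makes cytosolic acetyl-CoA from citrate, came first with r = 0.95 (0.94 over the 12 arrays at 24 h and 0.95 over the 11 at 48 h). It was followed by DOLK, a kinase of dolichol (0.88), SLC25A1, the carrier that exports citrate from mitochondria (0.88), EMC1, a subunit of a membrane protein insertion complex of the endoplasmic reticulum (0.88), and TMEM50B (0.87). The log2 difference of ACLY from si-SCRL was 1.11 (SE 0.13) after si-A2 and 0.42 (SE 0.13) after si-A1 at 24 h. At 48 h it was -0.55 (SE 0.18) with si-A1 and 0.00 (SE 0.20) with si-A2, the same order as in TMEM87B. TMEM50B stood at 0.96 after si-A2 at 24 h, and DOLK, EMC1 and SLC25A1 at 0.56, 0.56 and 0.41. These genes were picked for their likeness on the same arrays, so their differences carry no test.

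The genes most like SDC4 were YAP1, the co-activator of the Hippo pathway (r = 0.90), MPZL3 (0.87), BABAM2, a subunit of the BRCA1-A complex (0.86), DYNLT1, a dynein light chain (0.85), and RBPMS, an RNA-binding protein (0.85). After si-A2 at 24 h the log2 difference from si-SCRL was -2.08 (SE 0.15) for MPZL3, -1.07 for BABAM2, -0.99 for DYNLT1, -0.73 for YAP1 and -0.61 for RBPMS, again with no test. At 48 h MPZL3 stood at -1.24 (SE 0.15), BABAM2 at -0.72 and YAP1 at -0.19. For YAP1 the r was 0.96 over the arrays at 24 h and 0.71 over those at 48 h. TMEM87B and SDC4 ran against each other, with r = -0.72 over the 23 arrays, -0.86 at 24 h and -0.54 at 48 h. These coefficients describe arrays that share siRNA groups, and those at 24 h include the change for which the genes were chosen.

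**Figure D4:**
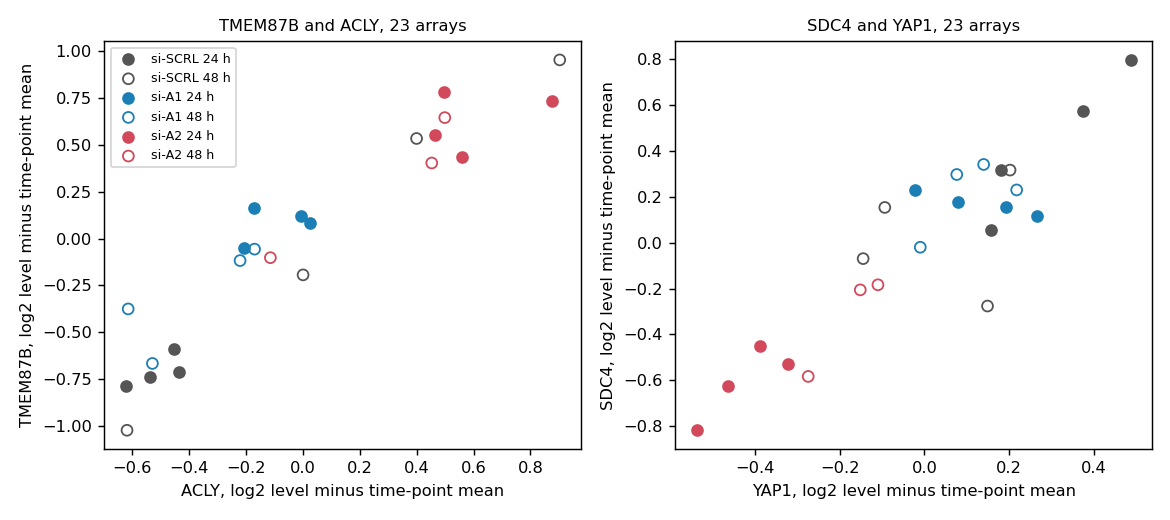
Log2 level minus the mean of its time point of TMEM87B against ACLY and of SDC4 against YAP1 (both axes) on 23 arrays, coloured by siRNA, filled at 24 h and open at 48 h. The TMEM87B and ACLY points lie along 1 line at both times (r = 0.94 and 0.95), including the spread si-SCRL arrays at 48 h.

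Markers of the cell line were present throughout. The 4 LNCaP markers KLK3, KLK2, TMPRSS2 and FOLH1 were well above background on all arrays used, and their summed linear level ranged from 8114 to 13227 after si-SCRL, 8859 to 11688 after si-A1 and 8154 to 11242 after si-A2 at 24 h. At 48 h these ranges were 8097 to 21567, 6746 to 11634 and 8676 to 13978. KLK2 fell after si-A1 at 48 h by 1.07 on the log2 scale (adjusted p = 0.000971, limma), and 0 of the 4 were called in the other comparisons (limma). At an unadjusted p below 0.05 there was 1 of the 4 after si-A2 at each time and 0 after si-A1 at 24 h. Of 8 markers of other cell types, 6 were above the threshold at 24 h and 5 at 48 h. The neuroendocrine marker CHGA and the basal marker KRT5 were well above background on 0 arrays, whereas PTPRC was so on all. The other neuroendocrine marker, SYP, was so on 9 of 12 arrays at 24 h and 8 of 11 at 48 h. PECAM1 and ACTA2 were each so on 12 of 12 and 8 of 11, COL1A1 on 3 and 0, and COL3A1 on 1 and 0. The summed level of the 8 was 376 to 486 after si-SCRL, 655 to 874 after si-A1 and 467 to 629 after si-A2 at 24 h, and 111 to 315, 153 to 261 and 135 to 260 at 48 h. ACTA2, a smooth muscle actin, was the 1 called marker of the 8, higher by 2.68 after si-A1 at 48 h (adjusted p = 0.00248, limma), with 1 of 4 control arrays well above background. The part of these markers in the levels of TMEM87B and SDC4 was not tested.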

How the data were processed

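RNA of LNCaP cells was hybridised to 24 Agilent arrays of 1 colour (SurePrint G3). The authors deposited Feature Extraction output, in which the processed intensity of a spot is background-subtracted and not yet normalized across arrays. The authors also deposited a table of log2 values, used as an alternative. The submitters' processing notes name R 3.4.3 and limma 3.34.8.

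Groups, replicates and times came from the sample labels. The log2 processed intensity was quantile-normalized within each time point, control spots were removed, outlier-flagged spots were set aside and repeated spots averaged. Probes above the mean plus 3 SDs of 308 negative controls on at least 3 arrays were tested. Linear models (limma 3.58.1 in R 4.3.3, with random blocks through statmod 1.5.0) held 3 siRNA groups and the slide, with Benjamini-Hochberg adjustment over all probes tested; a gene, read on its brightest probe, was called if its absolute log2 difference was at least 0.5 and its adjusted p below 0.01. Probes were named through RefSeq (GRCh38.p14). The models were tested on simulated data. The number of arrays and the signal over background limit the precision. At 24 h and 48 h the median intensity of the arrays used was 24.4 to 57.2 and 20.4 to 32.2.

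Deviations from the group means of same-numbered arrays correlated between -0.15 and 0.16 at 24 h, so the numbers were not taken as pairs there. At 48 h all 10 pairs lay between 0.18 and 0.35, which meets the criterion for pairs, but pairs of different number on the same slide lay between 0.10 and 0.29, and the number is nested in the slide, which is in the model. Alternatives were 75th percentile scaling, normexp (offset 50), no background correction, the deposited log2 values, flagged spots kept, other slide and replicate terms, other filters, the dim array kept, and leaving out single arrays.

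The members and gene lists (heparan sulfate proteoglycans and enzymes, syndecan-4 partners, TMEM87 family and Golgi transport, and markers) were chosen with earlier results of these data known. Other named genes are the nearest relatives and neighbours, up to 4 called genes per list and comparison with the largest difference (HS6ST2, the fifth in 1 list, was added after its values were seen), and the 5 genes most like each member. Probe, siRNA and protein sequences were not used here. A few genes are not reported.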

Additional observations from a re-analysis of the deposited data

Results flagged for a closer look

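TMEM87B after si-A1 lay on opposite sides of the control at the 2 time points. On probe A_23_P91076 all 4 si-A1 arrays were above the mean of the si-SCRL arrays at 24 h (mean difference 0.78) and all 4 were below it at 48 h (mean difference -0.371). On probe A_23_P303155 the mean difference was 1.04 at 24 h and -0.406 at 48 h, again with all 4 arrays on each side. At 48 h these differences rested on the control arrays, and they were -0.63 and -0.77 without si-SCRL replicate 2 and -0.19 and -0.15 without si-SCRL replicate 3. The difference at 24 h uses the si-SCRL arrays by which TMEM87B was chosen, so it carries no test. At 48 h neither probe passed the test (adjusted p = 0.363 and 0.492, limma). The difference between the times was not tested, and each time had an array version of its own. At 48 h the control arrays were split by slide, and on probe A_23_P91076 the si-A1 difference was 0.09 within slide 1 and -0.83 within slide 2. On probe A_23_P303155 it was 0.13 within slide 1 and -0.95 within slide 2.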

How the results depend on the processing

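Every member kept its direction at 24 h under all 22 alternatives. These alternatives use the arrays by which the genes were chosen, so this is a description and no test of the change. The si-A2 difference of SDC4 at 24 h was smaller with normexp (-0.751) and with no background correction (-0.745), and that of TMEM87B probe A_23_P303155 was 0.919 and 0.917, against 0.56 under both for si-A1. No member passed or lost the test at 48 h under the alternatives run, which gave no value for SDC4 with the interquartile filter or for A_23_P303155 with 1 probe per gene. The si-A2 difference of probe A_23_P91076 from si-SCRL at 48 h lay between -0.115 and 0.313 with each array left out in turn, that of A_23_P303155 between -0.110 and 0.515 (-0.087 without si-SCRL replicate 2). With the dim array kept, probe A_23_P303155 stood at -0.854 against si-SCRL and -0.460 against si-A1, both turned in sign, where that array's level was not well above background, while A_23_P91076 moved up to 0.48 and 0.87. With the replicate block the si-A2 difference at 48 h was 0.01 on probe A_23_P91076 and -0.29 for SDC4, and it changed no call of a member. The listed and neighbouring genes called in the report kept their direction under every alternative run.

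The number of genes called depended on the setting, and the cause was not tested. For si-A1 at 24 h it was 390, with 254 under the replicate block, 142 with only the groups compared in the fit, 231 with the interquartile filter and 205 to 334 with an array left out. For si-A2 at 24 h it was 333, with 154 in the fit of the groups compared and 215 to 326 with an array left out. For si-A1 at 48 h it was 2215, with 1190 without the slide term, 1439 under the block, 23 with the dim array kept, 865 at an absolute log2 difference of at least 1 and 1104 to 2288 with an array left out. For si-A2 at 48 h it was 165, with 490 (normexp), 612 (no background correction), 92 (no slide term), 0 (block), 0 (groups compared), 53 (interquartile filter), 0 (dim array kept) and 0 to 66 with an array left out, 0 being without si-SCRL replicate 2. In these limma fits with 0 calls, 6565, 4857, 2648 and 6676 genes had an unadjusted p below 0.05. For si-A2 against si-A1 at 48 h it was 519, with 863 (no background correction), 253 (no slide term), 208 (block), 3 (groups compared), 304 (interquartile filter), 0 (dim array kept, with 2172 at an unadjusted p below 0.05), 298 (log2 difference of at least 1) and 35 to 464 with an array left out. Precision is limited by 3 or 4 arrays a group.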
